A study of Mus musculus with 23 samples.

Results

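The genes described here are Cyp1a1 and 7 other genes of the aryl hydrocarbon receptor pathway, Cyp1a2, Cyp1b1, Ahr, Ahrr, Arnt, Tiparp and Nqo1. They are 8 of the 18193 genes, and 17 of the 45037 probe sets, measured in mouse lung. Cyp1a1 was chosen by its measured values, because its signal fell in CF lungs of both strains, and the other genes were added for their place in the pathway. The fall of Cyp1a1 is therefore given below as a description, with no test. RNA of the whole right lung was measured on 23 arrays, 1 per sample. Mice labelled CF (CF-/-) were compared with mice labelled Control (CF+/+) in BALB/c (BALB) and C57BL/6 (B6), in females and males. The 8 groups of strain, genotype and sex held 3 arrays each, with only 2 in B6 CF males. Neither the allele behind the label CF-/- nor the age of the mice is stated in the labels. No treatment is named in the labels, and all groups are untreated as far as the labels say.

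The aryl hydrocarbon receptor, encoded by Ahr, is a transcription factor held in the cytoplasm by chaperones until a ligand binds it. It then enters the nucleus, pairs with the protein of Arnt, and binds DNA at a short core motif near its target genes. Cyp1a1, Cyp1a2 and Cyp1b1 encode cytochrome P450 enzymes that oxidise aromatic hydrocarbons, and Nqo1 encodes a quinone reductase that is also a target of the stress factor NRF2. Ahrr encodes a repressor of the receptor, and Tiparp an ADP-ribosyltransferase that the receptor induces and that dampens its activity. In the lung, Cyp1a1 is a widely used readout of receptor activity and can be induced in endothelium, club cells and alveolar type 2 cells.

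The 250 bases upstream of the start of Cyp1a1, Tiparp and Ahrr are shown. Cyp1a1 was lower in CF lungs of both strains, and Tiparp passed the test in CF lungs of BALB only. Ahrr is a dim gene with the most copies of the motif. The sequences are those of RefSeq on GRCm38.p6, read 5′ to 3′ on the strand of the gene. Capitals mark the core motif GCGTG or its reverse complement CACGC. The Cyp1a1 window is chr9:57697363-57697612 on the plus strand, the Tiparp window is chr3:65528197-65528446 on the plus strand, and the Ahrr window is chr13:74292332-74292581 on the minus strand.
Cyp1a1: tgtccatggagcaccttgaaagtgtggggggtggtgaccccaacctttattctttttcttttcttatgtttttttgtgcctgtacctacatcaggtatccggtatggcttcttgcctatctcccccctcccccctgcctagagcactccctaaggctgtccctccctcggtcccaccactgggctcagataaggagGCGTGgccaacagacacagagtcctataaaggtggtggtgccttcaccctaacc
Tiparp: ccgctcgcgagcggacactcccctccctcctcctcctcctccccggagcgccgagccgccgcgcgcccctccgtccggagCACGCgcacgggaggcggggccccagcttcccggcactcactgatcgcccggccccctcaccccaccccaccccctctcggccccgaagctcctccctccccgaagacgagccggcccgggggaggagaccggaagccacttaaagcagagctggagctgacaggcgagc
Ahrr: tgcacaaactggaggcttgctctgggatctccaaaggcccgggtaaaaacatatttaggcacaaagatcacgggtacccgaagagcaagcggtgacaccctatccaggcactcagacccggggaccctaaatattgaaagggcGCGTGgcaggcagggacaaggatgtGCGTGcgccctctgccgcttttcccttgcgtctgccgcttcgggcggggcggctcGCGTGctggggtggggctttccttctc

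The motif GCGTG, searched on both strands, occurred once in the Cyp1a1 window, 54 bases upstream of the start. Ahrr had 3 copies, 107, 82 and 27 bases upstream, and Tiparp had a single copy in reverse orientation 170 bases upstream. Cyp1b1 and Arnt had a copy each, 76 and 29 bases upstream, while the windows of Cyp1a2 and Nqo1 held none. No window of Ahr was in the table used, so 5 of the 7 windows held the motif. Of all 32851 upstream windows of this length, 28.16% held it. A match in these letters describes the sequence and is not a measured binding site. In the gene order of the same assembly, Cyp1a2 is the neighbouring protein-coding gene of Cyp1a1, with 0 protein-coding genes between them.

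The values are log2 signals, so a difference of 1 is a doubling of the signal, and a gene is represented by its probe set with the highest mean over all arrays. The lung markers Sftpc (surfactant protein C) and Scgb1a1 (the club cell secretory protein) were bright on every array, at 13.55 to 13.75 and 13.57 to 13.75. Cftr, the gene mutated in cystic fibrosis, read 3.49 to 4.42 in BALB CF lungs, against 5.40 to 5.85 in BALB controls. In B6 it read 3.86 to 4.31 in CF lungs, against 4.04 to 4.58 in controls, and these ranges overlap; where its probes lie relative to the altered part of the gene is not given in the sources used here. Some arrays carried signal of tissues other than lung. The mean of 6 intestine markers was above 5 on 5 control arrays, 4 of BALB and 1 of B6, and the mean of 6 squamous epithelium markers was above 5 on all 3 arrays of BALB CF females and on 2 of B6 controls. These arrays were kept. Fits without them were made for Cyp1a1 and the other pathway genes named at the start, and values from these fits are given below for several of them. Results of the cell marker lists and of the further gene lists are given over all arrays only. Whether those calls hold without these arrays was not tested.

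The signal of Cyp1a1 was lower in CF lungs of both strains, and the CF and control arrays did not overlap. In BALB females it was 3.84, 4.55 and 4.79 in CF lungs, against 7.13, 7.65 and 6.72 in controls. BALB males had 5.32, 3.62 and 4.73 in CF lungs, against 5.92, 7.62 and 7.32 in controls. All 3 CF arrays lay below all 3 control arrays in each sex of BALB, and the closest pair was in males. In B6 females, Cyp1a1 read 4.24, 5.38 and 4.39 in CF lungs, against 5.83, 6.26 and 6.39 in controls. B6 males had 3.29 and 3.36 in CF lungs, against 7.97, 7.21 and 7.61 in controls. The lowest and the highest values of all 23 arrays were thus both in B6 males. Over both strains the highest CF array stood at 5.38 and the lowest control array at 5.83.

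**Figure D1:**
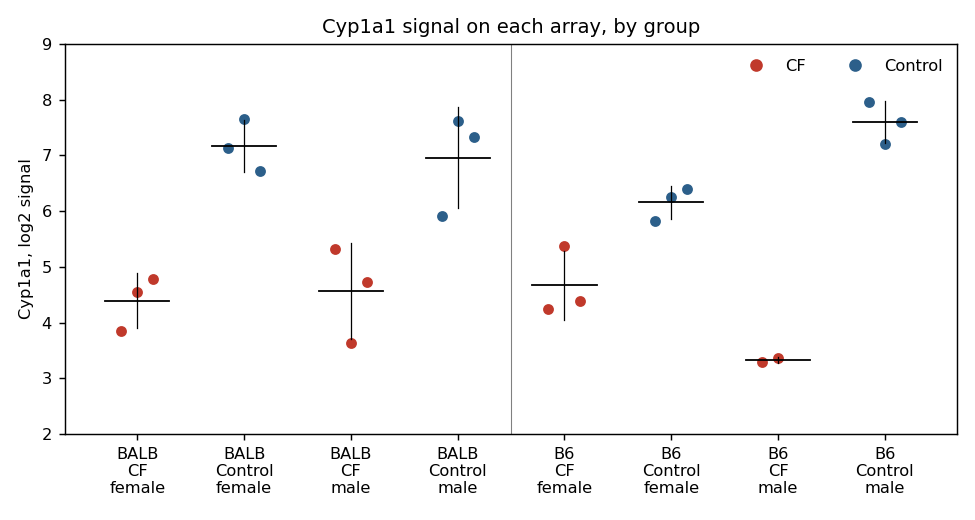
Cyp1a1 log2 signal on each of the 23 arrays (vertical axis) by strain, genotype and sex (horizontal axis). Points are arrays, horizontal bars are group means and vertical bars are 1 SD to each side. All 11 CF arrays lie at or below 5.38 and all 12 control arrays at or above 5.83.

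Averaged over the sexes, CF minus control was -2.58 in BALB (SE 0.29, n = 6 CF and 6 control arrays) and -2.88 in B6 (SE 0.31, n = 5 CF and 6 control arrays). As measured, the signals were 5.99-fold lower in BALB CF lungs and 7.36-fold lower in B6 CF lungs. Several CF arrays lay in the range of dim probe sets, the lowest at percentile 16.25 of all probe sets on its array, where a fold can understate a fall. The BALB value minus the B6 value was 0.30 (SE 0.43), with a 95% interval of -0.59 to 1.19. It was 1.86 without the arrays with squamous markers above 5, where only males could be compared, and -0.44 with the intestine and squamous marker means as covariates, so its sign is not settled. Of 45037 probe sets, 12 fell by more in BALB and 0 in B6. The share of genes that fell in CF lungs at an adjusted p under 0.05 was 2.66% in BALB and 1.5% in B6, which is printed for scale only since Cyp1a1 was selected on this contrast. In whole lung RNA, fewer cells that express a gene and less of its RNA per cell cannot be told apart. Nothing in the labels says that replicates came from separate animals, so every p-value here measures the spread among these samples alone, and that spread may be technical.

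By sex, CF minus control for Cyp1a1 was -2.77 in BALB females and -2.40 in BALB males (SE 0.42 each). In B6 it was -1.49 in females (SE 0.42) and -4.27 in males (SE 0.46), whose CF arrays lay only at percentiles 16.25 and 18.93 of all probe sets. The female and male values thus lay close together in BALB and apart in B6, where the female value minus the male value was 2.78 (SE 0.62), against -0.37 (SE 0.59) in BALB. The split by strain was looked at after the values were seen and is given with no test. Over both strains, the sex difference of the CF effect was 1.20 (SE 0.43) and did not pass the test (limma, adjusted p = 0.233, 0.412% of genes passing), and it stayed positive, between 0.97 and 1.46, when any 1 array was left out.

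The strains and the sexes, which the choice of Cyp1a1 did not use, were compared with limma and Benjamini-Hochberg adjustment over all probe sets. BALB minus B6 was 0.48 in CF lungs (SE 0.31, adjusted p = 0.337) and 0.18 in controls (SE 0.29, adjusted p = 0.759), with 95% intervals of -0.17 to 1.13 and -0.43 to 0.79. The difference in CF lungs was 1.23 over males alone, without the arrays with squamous markers above 5 (adjusted p = 0.116), and that in controls 0.79 with the marker covariates (adjusted p = 0.267). Neither strain difference of Cyp1a1 passed, while 19.7% of genes did so in CF lungs and 18.2% in controls. Female minus male was 0.59 in CF lungs (SE 0.31, adjusted p = 0.597) and -0.61 in controls (SE 0.29, adjusted p = 0.313). Neither passed, and the background was 0.198% of genes in CF lungs and 3.42% in controls. In B6 controls alone, the 3 females read 5.83 to 6.39 and the 3 males 7.21 to 7.97, a difference of -1.43 (SE 0.42). In BALB controls female minus male was 0.21 (SE 0.42), and these values by strain, looked at after they were seen, are given with no test.

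The marker signals of other tissues can be set beside Cyp1a1 directly. On the 5 control arrays with intestine markers above 5, Cyp1a1 read 5.83 to 7.62 (median 6.72), and on the 7 other controls 6.26 to 7.97 (median 7.32). Without the arrays above 5, CF minus control was -3.01 in BALB and -2.96 in B6. The 3 CF arrays with squamous markers above 5 read 3.84 to 4.79 for Cyp1a1, inside the 3.29 to 5.38 of the 8 other CF arrays. Leaving out arrays with squamous markers gave -2.40 in BALB, where only males remained, and -2.96 in B6. With both marker means as covariates the values were -3.32 in BALB and -2.88 in B6. In B6 the fall was thus about as large without either set of arrays, and in BALB without those with intestine markers. The squamous arrays of BALB were all 3 CF females, so the -2.40 is the male value given above. It cannot show what those arrays add in BALB, and the part of such signal in the fall was not tested.

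**Figure D2:**
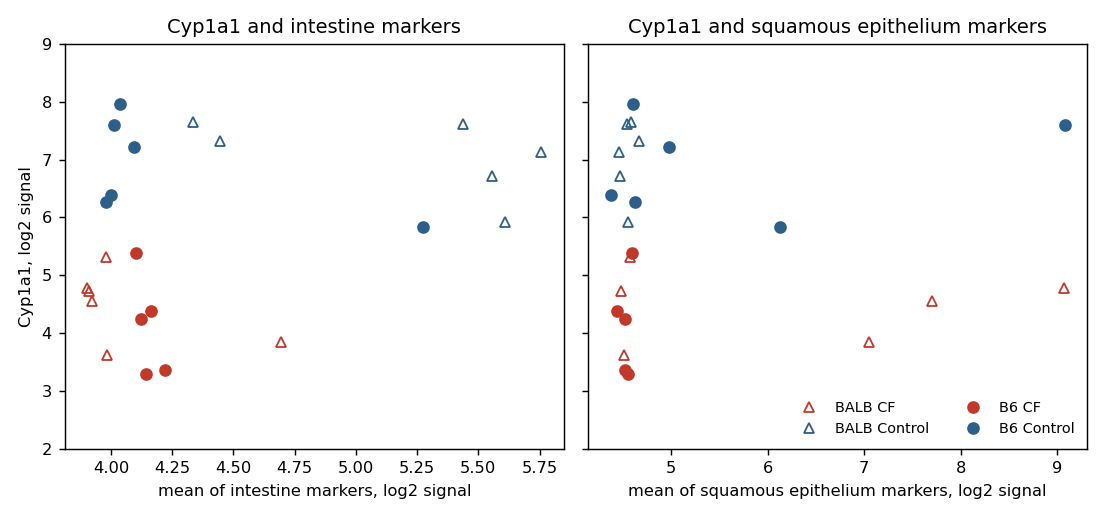
Cyp1a1 log2 signal (vertical axes) against the mean log2 signal of 6 intestine markers (left, horizontal axis) and of 6 squamous epithelium markers (right) on the 23 arrays, with open triangles for BALB and filled circles for B6. Cyp1a1 spans 5.83 to 7.62 on the 5 control arrays with intestine markers above 5 and 6.26 to 7.97 on the 7 other controls.

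Markers of the cell types in which Cyp1a1 can be induced were also counted. Of 12 endothelial markers, 3 fell in BALB CF lungs (Tie1, Ramp2 and Esam, by 0.35, 0.25 and 0.19), with a median over the list of -0.15. In B6, Ramp2 rose by 0.23 and Tek fell by 0.25, with a median of -0.09. None of the 5 club cell markers and none of the 6 alveolar type 2 markers passed in either strain. Their medians were -0.03 in BALB and -0.02 in B6 for club cells, and -0.0041 and -0.07 for alveolar type 2 cells. Immune markers were higher in CF lungs: 4 of 7 T cell markers rose in BALB and 6 of 7 in B6, 4 of 5 neutrophil markers rose in each strain, and all 4 measured B cell markers rose in BALB and 0 of 4 in B6. The mean of the T cell markers was 5.48 to 6.15 in BALB CF lungs, against 4.87 to 5.82 in controls, and 5.69 to 6.15 in B6 CF lungs, against 4.86 to 5.36 in controls. The part of any of these cell types in the fall of Cyp1a1 was not tested. Over all genes, 2.87% rose and 2.66% fell in BALB CF lungs, and 3.92% rose and 1.5% fell in B6 CF lungs.

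Of the 7 other genes, only Tiparp passed the test in BALB CF lungs, where it fell, and 0 of the 7 passed in B6 CF lungs. The shares of all genes called in either direction were 5.53% in BALB and 5.43% in B6, so these counts do not set the 7 genes apart from the background. At an unadjusted p under 0.05, Tiparp and Cyp1b1 passed in BALB and 0 genes in B6. The median CF effect over the 7 genes was 0.02 in BALB, against -0.01 over all genes, and -0.03 in B6, against 0.01 over all genes.

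**Figure D3:**
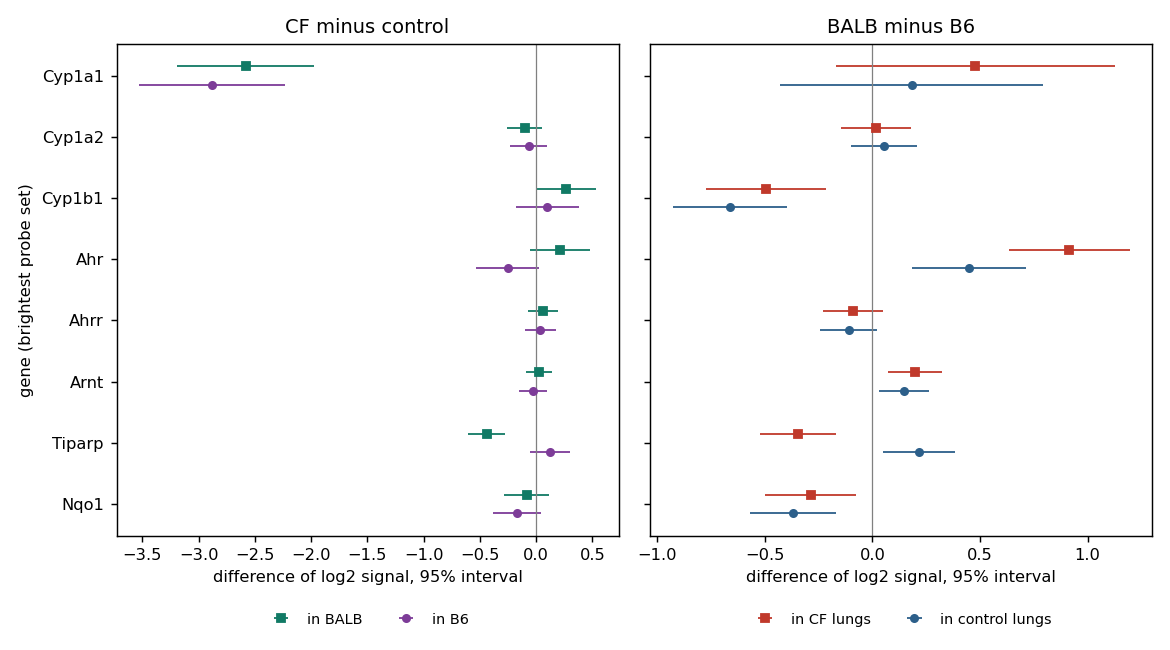
Differences of log2 signal with 95% intervals for the 8 genes by brightest probe set, CF minus control in BALB and B6 (left) and BALB minus B6 in CF and control lungs (right). In the left panel Cyp1a1 lies at -2.58 and -2.88 and the other 7 genes lie between -0.44 and 0.27.

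Ahr, the receptor itself, was bright, above at least 92.99% of all probe sets on every array. Its probe set 1422631_at read 9.56, 9.70 and 9.18 in BALB CF females, against 9.32, 9.43 and 9.06 in BALB control females. BALB males had 9.40, 8.93 and 9.14 in CF lungs, against 8.66, 8.97 and 9.17 in controls. The BALB groups overlapped in both sexes, and CF minus control was 0.21 (SE 0.13, adjusted p = 0.408). It was 0.02 without the arrays with intestine markers above 5 and -0.06 with marker covariates (adjusted p = 0.986 and 0.958). In B6, females had 8.29, 8.48 and 8.24 in CF lungs, against 8.40, 9.11 and 9.19 in controls. B6 males had 8.48 and 8.45 in CF lungs, against 8.44, 8.24 and 8.54 in controls. Again the groups overlapped in each sex, and CF minus control was -0.25 (SE 0.13, adjusted p = 0.351). It was -0.38 without the arrays with intestine markers above 5, the only setting tried in which it passed, in a fit with 2 BALB controls. With any 1 B6 array left out it lay between -0.38 and -0.18 and did not pass. It was -0.35 without the arrays with squamous markers above 5 (adjusted p = 0.0959) and -0.32 with marker covariates (adjusted p = 0.198).

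The strains differed more clearly in Ahr. All 6 BALB CF arrays, at 8.93 to 9.70, lay above all 5 B6 CF arrays, at 8.24 to 8.48, and BALB minus B6 was 0.92 in CF lungs (SE 0.13, adjusted p = 3.1e-05). In controls the ranges were 8.66 to 9.43 in BALB and 8.24 to 9.19 in B6, with a difference of 0.45 (SE 0.13, adjusted p = 0.0174). The second Ahr probe set, 1450695_at, was also higher in BALB CF lungs, by 0.78 (adjusted p = 5.2e-05), but differed by 0.15 in controls (adjusted p = 0.446). On that probe set CF minus control was 0.38 in BALB (adjusted p = 0.0523) and -0.24 in B6 (adjusted p = 0.299), and the strain difference of 0.63 passed (SE 0.16, adjusted p = 0.0441). The same strain difference on the brighter probe set was 0.47 and did not pass (SE 0.19, adjusted p = 0.205), and of the settings tried it passed only without B6 control female 1 (0.59, adjusted p = 0.0369). It was 0.10 without the arrays with squamous markers above 5, over males alone (adjusted p = 0.887), and 0.25 with marker covariates (adjusted p = 0.799). The control difference on 1422631_at missed the threshold without B6 control male 2 (0.41, adjusted p = 0.0525) or without BALB control male 3 (0.39, adjusted p = 0.052). With the marker levels of other tissues taken out in the 3 ways named above, the Ahr difference in CF lungs stayed between 0.69 and 0.95. It passed each time, and the lowest value was over males alone, without the arrays with squamous markers.

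Arnt, the partner of the receptor, had 5 probe sets, and none of them passed in CF against control lungs of either strain. Its brightest, 1419996_s_at, read 6.75 to 6.86 in BALB CF lungs, against 6.66 to 6.93 in BALB controls, and 6.51 to 6.76 in B6 CF lungs, against 6.56 to 6.65 in B6 controls. BALB minus B6 was 0.20 in CF lungs (SE 0.06, adjusted p = 0.023) and 0.15 in controls (SE 0.06, adjusted p = 0.0841). The difference in CF lungs was small, none of the 4 other probe sets passed (0.18 to -0.01), and leaving out B6 CF female 1 (adjusted p = 0.0627), B6 CF male 2 (adjusted p = 0.0912) or BALB CF male 3 (adjusted p = 0.0542) ended the call. So did leaving out the arrays with squamous markers above 5, over males alone (0.25, adjusted p = 0.111), and the marker covariates (0.19, adjusted p = 0.122). In controls, leaving out BALB control female 3 made it pass (0.19, adjusted p = 0.026).

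Tiparp, a feedback inhibitor of the receptor, fell in BALB CF lungs. Its brightest probe set, 1426721_s_at, read 7.39, 7.42 and 7.38 in BALB CF females, against 7.77, 7.77 and 7.71 in control females. BALB males had 7.28, 7.52 and 7.36 in CF lungs, against 8.14, 7.77 and 7.83 in controls. All 6 CF arrays lay below all 6 control arrays, and CF minus control was -0.44 (limma, SE 0.08, adjusted p = 0.0026). In B6, females had 7.81, 7.70 and 7.83 in CF lungs, against 7.80, 7.28 and 7.54 in controls, and males had 7.53 and 7.86 in CF lungs, against 7.64, 7.74 and 7.69 in controls. The B6 groups overlapped, with a difference of 0.12 (SE 0.09, adjusted p = 0.518). The BALB effect minus the B6 effect was -0.56 (SE 0.12, adjusted p = 0.0128), in a comparison where 2.23% of genes passed and Tiparp was the only 1 of the 7 genes called by its brightest probe set.

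The 3 Tiparp probe sets moved alike. In BALB, 1452161_at fell by 0.42 (adjusted p = 0.0093) and 1452160_at differed by -0.38 (adjusted p = 0.084), while in B6 they differed by 0.14 (adjusted p = 0.525) and 0.11 (adjusted p = 0.753). The suffix of 1426721_s_at means that its probes can match more than 1 transcript. Between strains the probe sets were at odds: in controls BALB minus B6 was 0.22 on 1426721_s_at (adjusted p = 0.0751), -0.0001 on 1452161_at (adjusted p = 0.9998) and -0.49 on 1452160_at (adjusted p = 0.0084). In CF lungs all 3 were lower in BALB, by 0.35, 0.56 and 0.98 (adjusted p = 0.006, 0.0002 and 1.0e-05). On 1426721_s_at the difference in CF lungs missed the threshold without B6 CF male 2 (-0.26). It also missed without the arrays with squamous markers above 5, over males alone (-0.31, adjusted p = 0.123). The difference in controls passed without B6 control female 1 (0.28, adjusted p = 0.0131) and under array weights (0.26, adjusted p = 0.0134). It also passed without the arrays with squamous markers above 5 (0.28, adjusted p = 0.0341), but not with marker covariates (0.12, adjusted p = 0.661). The BALB fall was -0.41 without the arrays with intestine markers above 5, which leaves 2 BALB controls, and -0.33 with marker levels as covariates (adjusted p = 0.432). The call did not hold in these settings. Without the arrays with squamous markers above 5, over males alone, the fall was -0.53 and passed (adjusted p = 0.014). The strain difference of the CF effect was -0.53 without the arrays with squamous markers above 5, over males alone (adjusted p = 0.129). It was -0.48 with the covariates (adjusted p = 0.274) and -0.60 without the arrays with intestine markers above 5. On 1452160_at it was -0.49 over all arrays and did not pass (adjusted p = 0.167).

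**Figure D4:**
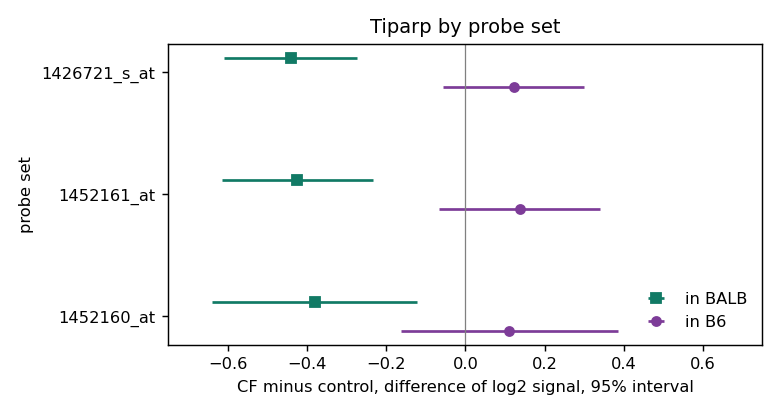
CF minus control difference of log2 signal (horizontal axis) with 95% intervals for the 3 probe sets of Tiparp (vertical axis), in BALB (squares) and B6 (circles). The BALB differences run from -0.44 to -0.38 and the B6 differences from 0.11 to 0.14.

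Ahrr, the repressor, was dim, between 2.52 and 2.94 on all 23 arrays, against a median of 4.59 over all probe sets. It differed by 0.06 between CF and control lungs in BALB (SE 0.06, adjusted p = 0.714) and by 0.04 in B6 (SE 0.07, adjusted p = 0.846). Cyp1a2, the neighbour of Cyp1a1 and best known from liver, was likewise dim at 3.02 to 3.48. It differed by -0.10 in BALB (SE 0.07, adjusted p = 0.522) and by -0.07 in B6 (SE 0.08, adjusted p = 0.746). At such low signal a change of these genes may not have been measurable.

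Cyp1b1, a P450 of mesenchymal and vascular cells, was lower in BALB on 2 of its 3 probe sets. Its brightest probe set, 1416612_at, read 5.19, 4.98 and 5.06 in BALB CF females, against 5.03, 5.12 and 5.30 in control females. BALB males had 5.69, 5.36 and 5.62 in CF lungs, against 4.52, 4.86 and 5.47 in controls. In B6, females had 5.64, 5.72 and 5.99 in CF lungs, against 5.39, 6.08 and 5.82 in controls, and males had 5.84 and 5.84, against 5.61, 5.64 and 5.74. Within a strain and sex the groups overlapped, except in B6 males, where both CF arrays lay above all 3 controls. CF minus control was 0.27 in BALB (SE 0.13, adjusted p = 0.268) and 0.10 in B6 (SE 0.13, adjusted p = 0.794). The BALB value came from males, 0.61 (adjusted p = 0.092), with -0.07 in females (adjusted p = 0.894), and over both sexes it passed when BALB control male 3 was left out (0.40, adjusted p = 0.0327). It was 0.03 without the arrays with intestine markers above 5 (adjusted p = 0.968) and -0.02 with marker covariates (adjusted p = 0.986). BALB minus B6 was -0.49 in CF lungs (SE 0.13, adjusted p = 0.012) and -0.66 in controls (SE 0.13, adjusted p = 0.000654). The probe set 1416613_at was also lower in BALB, by 0.36 in CF lungs (adjusted p = 0.0062) and by 0.31 in controls (adjusted p = 0.0122), and 1432081_at differed by 0.05 in each (adjusted p = 0.725 and 0.731). On 1416612_at the strain difference in CF lungs was -0.28 without the arrays with squamous markers above 5, over males alone (adjusted p = 0.428). In controls it was -0.41 with marker covariates (adjusted p = 0.149).

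Nqo1, the quinone reductase, lay near the median of all probe sets. It read 4.16, 4.33 and 4.30 in BALB CF females, against 4.07, 3.94 and 4.24 in control females, and 4.15, 4.01 and 4.16 in BALB CF males, against 4.31, 4.71 and 4.35 in control males. B6 had 4.35, 4.30 and 4.55 in CF females, against 4.74, 4.57 and 4.45 in control females, and 4.64 and 4.46 in CF males, against 4.31, 4.83 and 4.94 in control males. CF minus control was -0.09 in BALB (SE 0.10, adjusted p = 0.726) and -0.17 in B6 (SE 0.10, adjusted p = 0.439). In BALB all CF males lay below all control males, while 2 of 3 CF females lay above all control females. BALB minus B6 was -0.29 in CF lungs (SE 0.10, adjusted p = 0.0561) and -0.37 in controls (SE 0.10, adjusted p = 0.0101). The difference in CF lungs passed under 5 alternatives, another quantile normalization, the filter on dim probe sets, the CF arrays alone, the fit without intestine arrays and marker covariates (adjusted p = 0.0451, 0.0438, 0.0151, 0.0483 and 0.0117). The difference in controls was -0.27 without the arrays with squamous markers above 5 (adjusted p = 0.0952) and -0.36 with marker covariates (adjusted p = 0.0816).

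**Figure D5:**
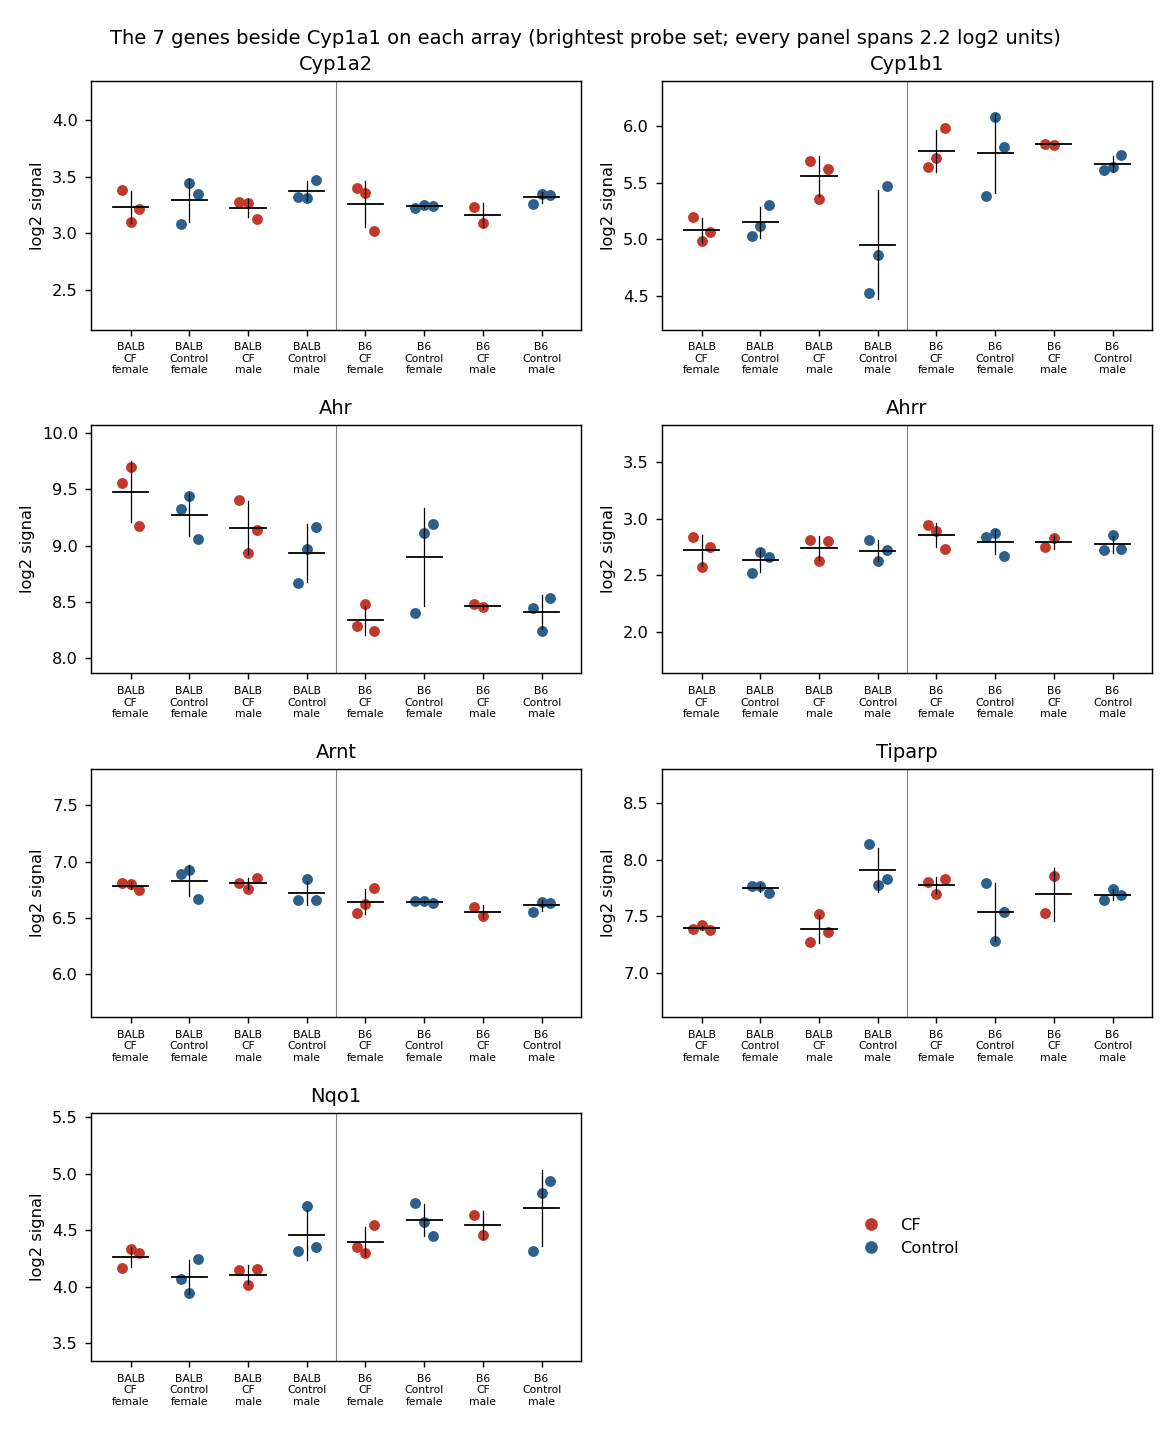
Log2 signal of the 7 genes beside Cyp1a1 on each of the 23 arrays (vertical axes, each spanning the same number of log2 units) by strain, genotype and sex (horizontal axes). Bars are group means with 1 SD to each side. Tiparp is lower on all 6 BALB CF arrays (7.28 to 7.52) than on the 6 BALB controls (7.71 to 8.14), and Ahr is higher on the 6 BALB CF arrays (8.93 to 9.70) than on the 5 B6 CF arrays (8.24 to 8.48).

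Counted over the strains, 2 of the 7 genes were higher and 2 lower in BALB CF than in B6 CF lungs (Ahr and Arnt, and Cyp1b1 and Tiparp), where 19.7% of all genes passed in either direction. In controls, Ahr was higher and Cyp1b1 and Nqo1 were lower in BALB, where 8.64% of all genes were higher and 9.58% lower. Between females and males, 0 of the 7 genes passed in CF lungs, in controls or in the sex difference of the CF effect. Of all genes, 0.198%, 3.42% and 0.412% passed in these comparisons, so the counts do not set the 7 genes apart from the background. At an unadjusted p under 0.05, Ahr and Nqo1 differed between control females and males (Ahr 0.42, SE 0.13, adjusted p = 0.0867, and Nqo1 -0.24, SE 0.10, adjusted p = 0.214). Here too the share of all genes at the unadjusted cutoff was not counted. For Ahr the female minus male difference in controls passed without B6 control female 1 (0.54, adjusted p = 0.0079) and under array weights (0.52, adjusted p = 0.0058). It also passed without the arrays with squamous markers above 5 (0.57, adjusted p = 0.0076) and with marker covariates (0.46, adjusted p = 0.0367). On the second Ahr probe set it was 0.24 and did not pass (adjusted p = 0.295). That of Nqo1 passed without B6 control male 1 (-0.33, adjusted p = 0.0497).

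Beyond the 8 genes, 4 lists of the pathway and its neighbours were described by counts. The proteins that hold or assist the receptor were listed with 11 genes, of which 8 were measured. In BALB CF lungs, 2 of them fell, the chaperone Hsp90aa1 by 0.44 (adjusted p = 0.0178) and the coactivator Ep300 by 0.25 (adjusted p = 0.0442). In B6 CF lungs only Hsp90aa1 fell, by 0.67 (adjusted p = 0.0011). Of all genes, 2.66% fell in BALB and 1.5% in B6. Hsp90aa1 read 10.32 to 11.13 in BALB CF lungs, against 10.65 to 11.73 in controls, and 10.26 to 10.64 in B6 CF lungs, against 10.59 to 11.74 in controls. It was also lower in control females than in control males, by 0.80 (adjusted p = 0.0002). The median of the list was -0.10 in BALB, against -0.01 over all genes, and 0.01 in B6, against 0.01.

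Other targets of the receptor were listed with 14 genes, 10 of them measured. None of the 10 passed in BALB CF lungs, and 2 rose in B6 CF lungs, while 5.53% of all genes passed in BALB in either direction and 3.92% rose in B6. These were Slc7a5, an amino acid transporter, by 0.42 (adjusted p = 0.0047), and Selenbp1, a selenium-binding protein, by 0.27 (adjusted p = 0.0357). Slc7a5 read 5.20 to 5.68 in B6 CF lungs, against 4.81 to 5.06 in controls, with no overlap. No other target on the list fell with Cyp1a1 at the threshold, and the medians were 0.07 in BALB and -0.02 in B6. Between control strains, 2 of the 10 were lower in BALB and 0 higher, while 18.2% of all genes passed in either direction. The aldehyde dehydrogenase Aldh3a1 was lower by 1.08 (adjusted p = 0.024) and the P450 Cyp2s1 by 0.56 (adjusted p = 1.2e-05). Aldh3a1 read 5.72 to 6.07 in BALB controls and 6.21 to 9.12 in B6 controls, which include 2 arrays with squamous markers above 5.

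Other P450 and partner enzymes numbered 14 measured of 16 listed. Fmo1 and Fmo5, flavin monooxygenases, fell in BALB CF lungs by 0.22 (adjusted p = 0.0473) and 0.34 (adjusted p = 0.0146), and the P450 Cyp2d22 rose in B6 CF lungs by 0.30 (adjusted p = 0.045), beside 2.66% of all genes falling in BALB and 3.92% rising in B6. In controls, 1 of the 14 was higher in BALB and 2 were lower, while 18.2% of all genes passed in either direction. Cyp2e1 was higher in BALB by 1.27 (adjusted p = 0.0308), and Cyp3a13 and Cyp2d22 were lower by 0.79 (adjusted p = 8.2e-06) and 0.29 (adjusted p = 0.0168). Cyp2e1 is also 1 of 7 measured markers of hepatocytes, the main cells of liver. Their mean was 4.60 to 5.20 in BALB controls, against 4.22 to 4.85 in B6 controls. Apoa1 of these 7 was also higher in BALB, by 1.40 (adjusted p = 0.0062), and 5 did not pass. The part of such signal in the Cyp2e1 difference was not tested. Of the NRF2 targets, 14 of 16 were measured. Gclm, a subunit of the enzyme that starts glutathione synthesis, fell in BALB CF lungs by 0.23 (adjusted p = 0.015). In B6 CF lungs Gclc, the other subunit, fell by 0.32 (adjusted p = 0.0417), and the glutathione reductase Gsr rose by 0.26 (adjusted p = 0.0136). Over all genes, 5.53% passed in BALB and 5.43% in B6. In controls, 3 of these 14 were lower in BALB and 0 higher, beside the same 18.2% of all genes. They were Gclc, Abcc1 (an exporter of conjugates) and Gsr, lower by 1.04 (adjusted p = 5.0e-09), 0.57 (adjusted p = 4.6e-06) and 0.17 (adjusted p = 0.0391). The medians of the P450 list were -0.09 in BALB CF and -0.04 in B6 CF lungs, and those of the NRF2 list -0.05 and -0.03.

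The genes whose pattern was most like that of Cyp1a1 over the 8 group means were Sipa1l3 (r = 0.97), Mon2 (r = 0.96), Eif4g2 (r = 0.96), Nr2f1 (r = 0.95) and Met (r = 0.95). Their group means spanned 0.26 to 0.99 log2 units, against 4.27 for Cyp1a1. None of the 7 other genes was among them; the highest was Cyp1a2 (r = 0.85), whose means spanned 0.21. Within groups, after the group means were taken out, the 23 arrays of Cyp1a1 ran most like those of Prps2 (r = 0.90), Mppe1 (r = 0.88), Ccr7 (r = 0.84), Neurl3 (r = 0.82) and Son (r = 0.81). Among the 7 genes this within-group r was 0.60 for Ahr, 0.38 for Cyp1b1, 0.32 for Arnt and -0.60 for Tiparp, and between -0.10 and 0.02 for Cyp1a2, Ahrr and Nqo1. The points of each r share the same arrays, tissue and normalization.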

How the data were processed

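Per the labels, each of the 23 arrays took biotin-labelled total RNA of a whole right lung. The deposited values were taken as log2 signals, a scale inferred from their range (1.79 to 13.82); array medians lay between 4.56 and 4.64, so the deposited arrays are on a common scale. How probes were summarised and normalised is not given in the sources used here. Columns were matched to groups by sample titles, and no columns were identical (0 pairs). Gene symbols are those of the platform annotation: 34945 probe sets had 1 symbol, 932 several and 9160 none, and those with several name no gene here. All 8 members were found, with 17 probe sets.

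After 64 control probe sets were left out, means of the 8 groups were fitted together with limma 3.58.1 in R 4.3.3 (15 residual and 5.81 prior degrees of freedom), so that groups of 2 or 3 arrays share an estimate of the spread. P-values were adjusted by Benjamini-Hochberg over the 45037 probe sets within a comparison, with a threshold of 0.05. The CF effect of a strain averages the female and male differences with equal weight. The number of arrays limited the precision. Intervals are 95% intervals of the fit.

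The 8 genes, the 4 pathway lists (46 of 57 genes measured) and the marker lists were chosen with earlier results of these data known, so they are no independent support. The named genes are the 8 members, the list members that passed (up to 4 by lowest p) and the 5 genes most like Cyp1a1 by each of both measures of r. Alternatives were another quantile normalization, a filter on dim probe sets, a trended and robust variance model, array weights, the replicate number as a block, a fit on the arrays compared alone, each array left out, and other probe sets. Leaving out arrays with intestine or squamous markers above 5, and both marker means as covariates, were added after seeing the data. Same-numbered arrays did not deviate together (r from -0.17 to 0.07 over 11 pairs), so the numbers were not taken to pair samples.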

Additional observations from a re-analysis of the deposited data

Results flagged for a closer look

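The CF effect differed between strains for 3 probe sets of the group, by a test of the difference itself. Tiparp on 1426721_s_at had a CF effect of -0.44 in BALB and 0.12 in B6, a difference of -0.5633 (limma, adjusted p = 0.0128). Tiparp on 1452161_at had -0.42 in BALB and 0.14 in B6, a difference of -0.561 (adjusted p = 0.0276). Ahr on 1450695_at had 0.38 in BALB and -0.24 in B6, a difference of 0.6275 (adjusted p = 0.0441), with opposite signs in the strains although neither strain's effect passed alone. No group had more than 3 arrays, so no single array was tested for standing apart from its group.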

How the results depend on the processing

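The CF effect of Cyp1a1 lay between -3.32 and -2.35 in BALB and between -3.06 and -2.77 in B6 in all settings tried. The gene was chosen for this fall, and no CF array overlapped a control array. Leaving out an array could therefore not turn the sign, and the kept direction is no support. Of 11 results of the 8 genes that passed, 225 of 252 settings kept the call, 24 lost it and 3 turned the sign. The 11 include the CF effect of Cyp1a1 in BALB and in B6, by which the gene was chosen. Both kept the call in every setting, so their settings add no support to these counts. Of 53 results that did not pass, 19 of 1268 settings passed, 63 turned the sign without passing and 1 turned it and passed. The 4 turned values came from other probe sets, with no test of the cause: Cyp1b1 on 1432081_at in controls (0.0526) and in CF lungs (0.0538), Arnt on 1449696_at in CF lungs (-0.0063) and Tiparp on 1452160_at in controls (-0.487), all BALB minus B6.

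Counts of probe sets past the threshold moved more. CF against control in BALB had 2217, with 3824 under array weights, 1406 on its own arrays, 326 without arrays with intestine markers, 1040 without those with squamous markers and 36 with marker covariates. The strain difference of the CF effect had 1142, with 2043 under weights and 127 with covariates. BALB against B6 controls had 7016, with 4118 without intestine arrays and 3437 with covariates, and CF lungs 8189, with 5149 without squamous arrays. Female against male controls had 1094, with 3666 under weights and 255 without intestine arrays. Female against male CF lungs had 146, with 256, 249 and 54 under weights, without intestine arrays and with covariates, and the sex difference of the CF effect 137, with 708, 25 and 2. Fewer arrays or degrees of freedom remain where arrays are left out or covariates added; other causes were not tested.

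With each array left out, counts ran from 852 to 2329 for B6 (2121), 1368 to 2851 for BALB, 591 to 1568 for the strain difference, 477 to 1772 and 44 to 245 for the sexes in controls and CF lungs, and 13 to 341 for the sex difference of the CF effect. The replicate block, whose numbers do not pair the samples, gave 2081 in B6 and 2173 in BALB and moved no count by over 1.5 times. Filtering on dim probe sets removed Ahrr and Cyp1a2, and the comparisons of 2 effects have no fit on fewer arrays. Without squamous arrays the sexes could not be compared in CF lungs, and every comparison that uses BALB CF lungs was over males alone. With 2 or 3 arrays a group and low signal for Ahrr and Cyp1a2, small changes could be missed.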
